A study of Macaca mulatta with 52 samples.

Results

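ZSCAN4, LEUTX, TPRX1 and RBP7 were followed as a group of 4 genes of embryonic genome activation. They were chosen by symbol, and each matched 1 of the 26309 gene identifiers in the count table: ENSMMUG00000005335 (ZSCAN4), ENSMMUG00000042532 (LEUTX), ENSMMUG00000048019 (TPRX1) and ENSMMUG00000002219 (RBP7). The study sequenced RNA from embryos of rhesus monkeys (Macaca mulatta), 1 embryo to a library, made by in vitro fertilisation of oocytes that had matured in hormone-stimulated females and were stripped of cumulus cells. The labels give a stage and a library kit per embryo, and say of the culture medium that it held or lacked relaxin without saying which embryo received it. SPIA is a linear cDNA amplification method, and its libraries analysed here came from 14 expanded and 2 delayed blastocysts, 11 morulas and 9 8-cell embryos. The SoLo kit is a low-input kit with depletion of ribosomal sequences. Its libraries analysed here came from 4 8-cell embryos, 3 morulas and 6 expanded blastocysts.

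By title, the embryos of all 13 SoLo libraries were also measured with SPIA, so the kits are not independent sets of embryos. The count columns of 11 name the embryo. The other 2 carry the code 111215 without a number, for which the titles list SoLo embryos 111215_01 and 111215_03. Which of these columns belongs to which embryo is not known. Embryos are named here by the 6-digit code and number of their titles. Whether embryos with the same code have common parents or were collected together is not stated in the labels. The libraries of a group are separate embryos by the labels.

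At genome activation the embryo begins to transcribe its own genome while RNA inherited from the oocyte is cleared. In primates the main wave comes around the 8-cell stage, and pioneer factors such as DUX4 open the chromatin of a short-lived set of genes. ZSCAN4, a SCAN-domain zinc finger protein known for its link to telomere maintenance, is a classical marker of this wave. LEUTX and TPRX1 are divergent paired-like homeobox transcription factors of the same wave. RBP7 encodes a small cytoplasmic carrier of retinol, the precursor of retinoic acid.

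Levels are CPM, counts of a gene per M (1e6) counts of the library after TMM scaling within a kit, which corrects for library size and composition. They are compared between embryos and not between genes, since transcript lengths were not used. SPIA libraries held 0.601 to 21.04 M counts and SoLo libraries 5.70 to 10.6 M. A count of 3 stood at 0.273 CPM in 8-cell embryo 020816_09 and at 6.85 CPM in the shallowest library, expanded blastocyst 111715_05. Values near these limits were not told apart from 0. An RNA level in a whole embryo cannot tell fewer expressing cells from less RNA per cell. RefSeq (T2T-MMU8v2.0) places the homeobox genes CRX and TPRX2 beside TPRX1 and 2 long noncoding RNAs over it, while the sources used here do not say whether the counting used strand. TPRX1 counts may therefore include reads of these genes.

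The stage labels were checked against markers. KRT18, a keratin of the trophectoderm, lay between 0 and 8.62 CPM in SPIA 8-cell embryos and between 32 and 476 CPM in expanded blastocysts. GATA3, a trophoblast transcription factor, lay between 0 and 10.8 CPM and between 4.57 and 54.9 CPM in the same groups. SPIA morulas lay between 1.61 and 98.6 CPM for KRT18 and between 0 and 126.5 CPM for GATA3. Both ranges overlap those of 8-cell embryos and of expanded blastocysts, so these genes do not set the morulas apart. Markers of cumulus and granulosa cells had a named identifier for 16 of 22 genes. Their summed SPIA level ran from 27.1 to 1752 CPM in 8-cell embryos, from 16.7 to 922 CPM in morulas and from 11.9 to 79.6 CPM in expanded blastocysts. INHA, a defining granulosa gene, was at 0 in 2 of 9 8-cell embryos and 8 of 11 morulas, and its highest 8-cell level was 15.1 CPM. VCAN, another marker of that list, had counts in every SPIA library of both stages. Its 8-cell median was 21.4 CPM with a highest value of 1544 CPM, while no morula exceeded 16.5 CPM. AREG peaked at 72.2 CPM among 8-cell embryos and at 0.250 CPM among morulas, with 2 of 9 and 7 of 11 at 0. Sperm markers summed to between 2.25 and 173 CPM in 8-cell embryos and to at most 23.5 CPM in morulas. For blood and immune markers the highest sum was 27.3 CPM at the 8-cell stage and 72.5 CPM among morulas, with the leukocyte gene PTPRC at 0 in 9 of 9 8-cell embryos and 9 of 11 morulas. CD14, a monocyte gene of that list, was at 0 in 2 of 9 8-cell embryos and 5 of 11 morulas and reached 25.5 and 64.2 CPM, the latter in morula 022916_02. The part of these cells in the levels of the 4 genes was not tested, except by leaving out 3 embryos with cumulus markers as described with the stage comparisons.

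At the 8-cell stage ZSCAN4 was the steadiest of the 4. Its SPIA level ran from 116 to 215 CPM with a median of 150.2 CPM, and its mean was 155 ± 34.4 CPM (SD, n = 9). In SoLo, ZSCAN4 stood at 439 CPM in 020816_06, 403 CPM in 020816_07, 517 CPM in 020816_08 and 496 CPM in 112815_02. No 8-cell embryo in either kit stood apart for this gene, and the coefficient of variation was 22.1% in SPIA and 11.3% in SoLo.

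LEUTX varied far more between 8-cell embryos. Its SPIA level ran from 25.8 to 356 CPM with a median of 139 CPM, a coefficient of variation of 73.3%. The highest 2 values were 296 and 356 CPM, in 011516_02 and 011516_03, the 2 embryos of that title code. In SoLo, LEUTX stood at 69.7 CPM in 020816_06, 130 CPM in 020816_07, 154 CPM in 020816_08 and 17.6 CPM in 112815_02. Embryo 112815_02 was the lowest 8-cell embryo for LEUTX in both kits, at 25.8 CPM in SPIA.

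TPRX1, the other homeobox gene, ran from 0.182 to 217 CPM in SPIA 8-cell embryos with a median of 56.1 CPM. Its lowest value came from 020816_09, where 2 counts were found in 16.5 M, and the next lowest embryo stood at 33.9 CPM. The 2 embryos with the most LEUTX had TPRX1 below that median, at 36.5 CPM in 011516_02 and 33.9 CPM in 011516_03. The highest TPRX1 value, 217 CPM, came from 020816_07, which held LEUTX at 209 CPM. In SoLo, TPRX1 stood at 421 CPM in 020816_06, 686 CPM in 020816_07, 620 CPM in 020816_08 and 397 CPM in 112815_02. All 4 of these were high, and 020816_09 is not among the SoLo libraries.

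Embryo 020816_09 kept ZSCAN4 at 122 CPM and LEUTX at 75.7 CPM while TPRX1 and RBP7 were at or near 0. In the same library ZP2, a zona pellucida gene of the oocyte, stood at 1817 CPM against a median of 265 CPM over the 9 8-cell embryos. FIGLA, an oocyte transcription factor, stood at 22.8 CPM against a median of 0.145 CPM. The summed level of 25 oocyte and maternal genes with a named identifier was 22890 CPM, against a median of 2636 CPM. Of the other genome activation genes in that library, KLF17 stood at 0.821 CPM and KHDC1L at 0.182 CPM, while ZNF280A stood at 235 CPM. The relation of these oocyte transcripts to the low TPRX1 was not tested.

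RBP7 was the sparsest of the 4 at the 8-cell stage. Its SPIA level ran from 0 to 43.0 CPM with a median of 6.62 CPM. No count was found in 020816_09 or in 112815_01, where a count of 0 allows a level of up to 0.273 and 0.277 CPM. In SoLo, RBP7 stood at 7.84 CPM in 020816_06, 2.37 CPM in 020816_07, 24.2 CPM in 020816_08 and 13.6 CPM in 112815_02. The 2 kits did not order these embryos alike: 020816_06 was the highest in SPIA at 43.0 CPM and 020816_08 in SoLo.

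**Figure D1:**
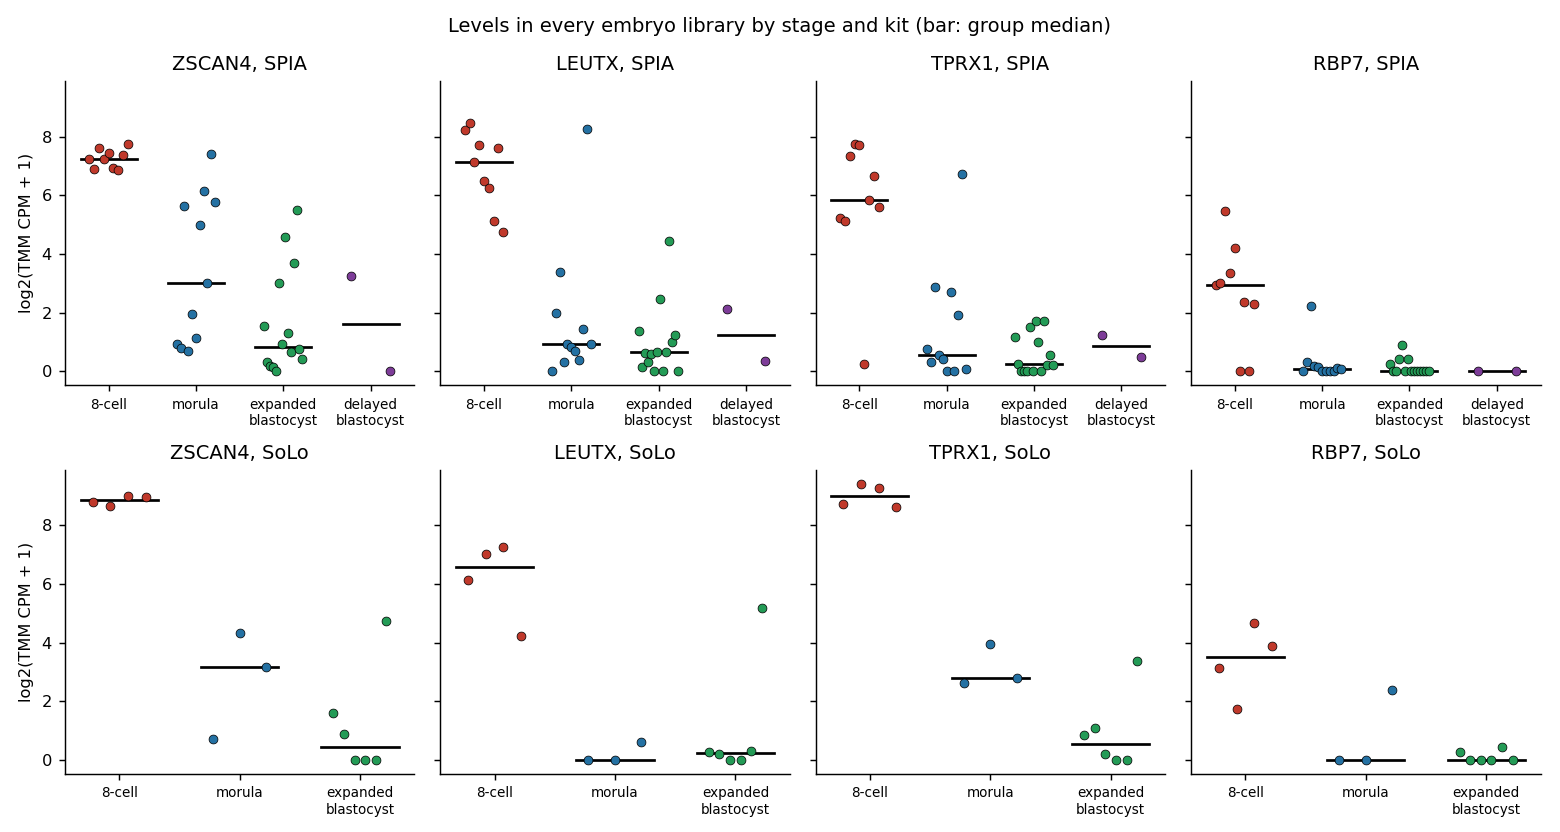
Level of each gene on a log2(TMM CPM + 1) axis in every library, by stage (horizontal axis), with SPIA in the upper and SoLo in the lower row, 1 point per embryo library and a bar at the group median. ZSCAN4 is tight in 8-cell embryos (116 to 215 CPM in SPIA), TPRX1 has 1 low 8-cell library at 0.182 CPM, and 1 SPIA morula reaches 171, 307 and 104 CPM of ZSCAN4, LEUTX and TPRX1.

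In morulas the 4 genes were lost unevenly. ZSCAN4 ran from 0.604 to 171 CPM in SPIA morulas with a median of 7.14 CPM, and 1 of 11 morulas lay at or above the lowest 8-cell embryo. LEUTX ran from 0 to 307 CPM with a median of 0.908 CPM, and again 1 of 11 reached the 8-cell range. Both exceptions were morula 022916_02. The share of all genes with so few morulas in the 8-cell range is not given. TPRX1 ran from 0 to 104 CPM with a median of 0.483 CPM, and RBP7 from 0 to 3.62 CPM with a median of 0.0610 CPM. For TPRX1 and RBP7 the 8-cell range reaches down to 0.182 and 0 CPM, so most morulas lie inside it. For TPRX1 morula 022916_02 also lies above the second lowest 8-cell embryo, at 33.9 CPM.

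Morula 022916_02 held 3 of the 4 genes at 8-cell levels and the fourth near 0. ZSCAN4 stood at 171 CPM, LEUTX at 307 CPM and TPRX1 at 104 CPM, while RBP7 stood at 0.0823 CPM, 2 counts in the deepest library (21.04 M). Without it the mean LEUTX level of the morulas fell from 29.5 to 1.78 CPM. This embryo also kept other genes of the wave: ZNF280A stood at 633 CPM, KLF17 at 118.5 CPM, RFPL1 at 105.5 CPM and CCNA1 at 75.5 CPM. Its trophoblast transcription factor genes were at 263 CPM (GATA2) and 126.5 CPM (GATA3), the highest of the 11 morulas, while KRT18 stood at 1.61 CPM, the lowest of them. ZP2 stood at 244 CPM, the summed cumulus and granulosa markers at 409 CPM and the blood and immune markers at 72.5 CPM. The part of those cells and of depth in this library was not tested.

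Morula 020816_04 was the only SPIA morula to hold all 4 genes above 3 CPM. Its levels were 48.8 CPM of ZSCAN4, 9.32 CPM of LEUTX, 6.39 CPM of TPRX1 and 3.62 CPM of RBP7, from 90 to 1213 counts each. Every value was below the 8-cell medians of 150.2, 139, 56.1 and 6.62 CPM. Its RBP7 level was the highest of the 11 morulas. Embryos 020816_02 and 020816_03, morulas of the same title code, held ZSCAN4 at 0.881 and 0.749 CPM.

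Other morulas kept ZSCAN4 with little of the rest. ZSCAN4 stood at 30.8 CPM in 022416_02, 70.4 CPM in 022416_03 and 53.8 CPM in 022916_03. LEUTX in these 3 embryos was at 0.626, 0.288 and 0.914 CPM, from 2 to 15 counts. TPRX1 was at 5.47, 0 and 0.0610 CPM, and RBP7 was at 0, 0 and 0.0610 CPM. The 2 morulas of code 022416 were both among them. The library of 022916_03 also held cumulus and granulosa markers at a sum of 922 CPM, the highest of the morulas, while 022416_02 and 022416_03 held 21.4 and 100.1 CPM.

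The remaining 6 SPIA morulas were low for every member: ZSCAN4 reached at most 7.14 CPM, LEUTX 2.997 CPM, TPRX1 2.81 CPM and RBP7 0.250 CPM. The embryo at 7.14 CPM was 022916_01, whose KRT18 level of 98.6 CPM and summed trophectoderm genes of 1199 CPM were the highest of the 11 morulas, with 022916_02 next for the sum at 731 CPM. Its SoLo library held ZSCAN4 at 8.002 CPM and KRT18 at 785 CPM. The lowest and median KRT18 values of the 3 SoLo morulas were 4.25 and 50.2 CPM, and SoLo expanded blastocysts ran from 931 to 1613 CPM. Summed primitive endoderm genes in the SoLo library of 022916_01 stood at 6344 CPM, inside the range of SoLo expanded blastocysts (6163 to 11720 CPM). Its summed trophectoderm genes, at 2789 CPM, lay below theirs (3188 to 5126 CPM). The 3 SoLo morulas analysed all came from this low group, and none of them held 8-cell levels of ZSCAN4, LEUTX or TPRX1. The labels also list SoLo morula 022416_02, which matched no column and was not analysed. Its SPIA library held ZSCAN4 at 30.8 CPM and is not in the low group.

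**Figure D2:**
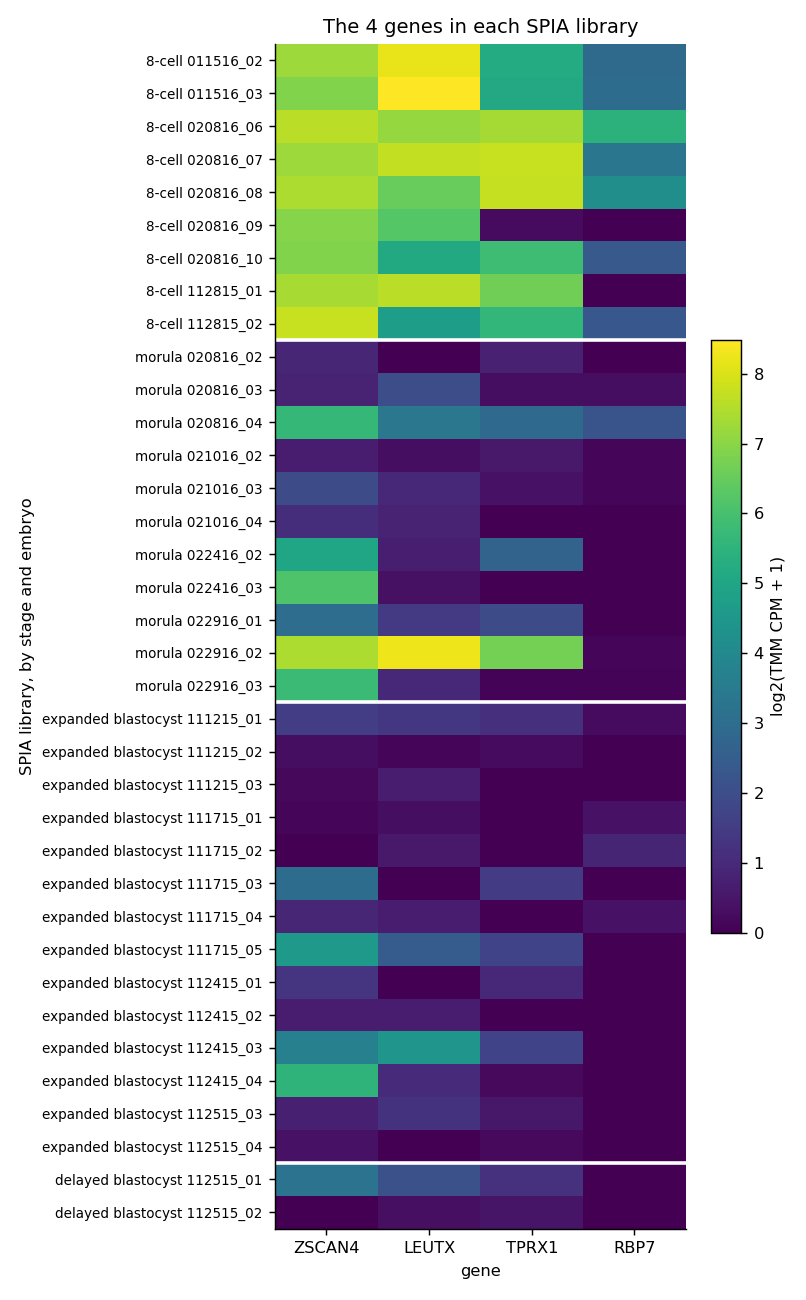
Heat map of the 4 genes (columns) in all 36 SPIA libraries (rows, by stage and embryo), coloured by log2(TMM CPM + 1). Among morulas, 022916_02 is bright for ZSCAN4, LEUTX and TPRX1 but not RBP7 (0.0823 CPM), 020816_04 holds all 4, and 022416_02, 022416_03 and 022916_03 hold ZSCAN4 with LEUTX under 1 CPM.

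The question of the stage comparisons was how the transcriptome differs between stages. In SPIA morulas TPRX1 fell by 3.12 ± 1.09 on the log2 scale against 8-cell embryos (SE; edgeR quasi-likelihood adjusted p = 0.0386, n = 9 and 11). RBP7 fell by 4.59 ± 1.30 (edgeR adjusted p = 0.0117). ZSCAN4 was at -2.14 ± 1.02 and LEUTX at -2.41 ± 1.20, and neither passed (edgeR adjusted p = 0.137 and 0.158). So 2 of 4 members were called lower, where 10.3% of the 15578 genes tested were.

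The result turned on morula 022916_02. Without it all 4 members were called lower, where 13.6% of genes were, and LEUTX was at -6.43 ± 1.04 (edgeR adjusted p = 5.05e-05). TPRX1 was then at -5.83 ± 1.04 (adjusted p = 0.000151), ZSCAN4 at -2.84 ± 1.04 (edgeR adjusted p = 0.0452) and RBP7 at -4.48 ± 1.33 (0.0134). The TPRX1 call was narrow: its edgeR adjusted p lay between 0.0526 and 0.0609 without any one of 8-cell embryos 020816_06, 020816_07 and 020816_08, or of morulas 020816_02, 020816_03, 020816_04, 021016_02, 021016_03, 022416_02 and 022916_01. Embryos 020816_06, 020816_07 and 112815_02 had summed cumulus markers of 490.5, 1752 and 977 CPM in SPIA. Without these 3, but with 020816_09 (1447 CPM) kept, RBP7 alone was called, at -3.82 (edgeR adjusted p = 0.0481), and TPRX1 was at -2.85 (0.0797). Within title code 020816, the only code with both stages, the 4 members were at -3.03 (ZSCAN4), -4.57 (LEUTX), -5.56 (TPRX1) and -3.34 (RBP7), with edgeR adjusted p from 0.308 to 0.582. Libraries under 12 M counts called ZSCAN4, LEUTX and TPRX1 lower (-3.64, -7.36 and -6.34), with RBP7 not passing the filter, while those above 12 M, which hold 022916_02, gave values from -3.21 to -0.57 with adjusted p from 0.739 to 0.929. Apart from the fit without 022916_02, the share of all genes called is not given for these subsets. Calls in them do not compare the members with other genes.

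In SoLo, TPRX1 fell by 5.96 ± 1.43 between 8-cell embryos and morulas (edgeR adjusted p = 0.0168, n = 4 and 3). The morula values were 5.23 CPM in 021016_02, 14.7 CPM in 021016_03 and 5.90 CPM in 022916_01, all far below the lowest 8-cell value of 397 CPM. ZSCAN4 was 0.642, 19.1 and 8.002 CPM in the same morulas and at -5.67 ± 1.96, which did not pass (edgeR adjusted p = 0.0711). LEUTX was 0, 0 and 0.525 CPM, the last from 4 counts, and did not pass either (-9.02 ± 2.99, edgeR adjusted p = 0.0621). RBP7 was at 0 in 021016_02 and 021016_03 and at 4.198 CPM, 32 counts, in 022916_01, where it lay inside the 8-cell range (-3.09 ± 1.70, adjusted p = 0.217). In all, 1 of 4 members was called lower, against 6.92% of the 14196 genes tested. Without morula 022916_01, RBP7 was at -9.61 ± 2.46 (edgeR adjusted p = 0.0176) and TPRX1 at -5.75 ± 1.74 (0.0589). The TPRX1 call was also lost without morula 021016_02 (adjusted p = 0.0603). Leaving out the 3 embryos with cumulus markers would leave 1 8-cell library in SoLo, so no such check is read there.

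Expanded blastocysts held little of any member. In SPIA, ZSCAN4 ran from 0 to 44.4 CPM with a median of 0.789 CPM, and LEUTX from 0 to 20.6 CPM with a median of 0.557 CPM. TPRX1 ran from 0 to 2.29 CPM with a median of 0.183 CPM, and RBP7 from 0 to 0.848 CPM, at 0 counts in 10 of 14 embryos. ZSCAN4 and LEUTX were below every 8-cell embryo in all 14, a description given without the share of all genes for which this holds. Against 8-cell embryos all 4 members were called lower, at -4.63 ± 1.03 (ZSCAN4), -6.18 ± 1.28 (LEUTX), -7.35 ± 1.21 (TPRX1) and -6.14 ± 1.28 (RBP7), with edgeR adjusted p from 1.34e-05 to 0.000723. Of all genes, 23.7% were called lower in that comparison.

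Between morulas and expanded blastocysts in SPIA, LEUTX fell by 3.77 ± 1.15 (edgeR adjusted p = 0.0249) and TPRX1 by 4.23 ± 1.06 (0.00725). ZSCAN4 was at -2.49 ± 0.94 (edgeR adjusted p = 0.0667) and RBP7 at -1.54 ± 1.09 (0.370). These 2 calls of 4, where 9.95% of genes were called lower, also turned on morula 022916_02. Without it LEUTX was at 0.25 ± 0.79 and TPRX1 at -1.52 ± 0.84 (edgeR adjusted p = 0.888 and 0.254), and ZSCAN4 and RBP7 at -1.80 and -1.65 (0.206 and 0.361), so that no member passed where 6.72% of genes did. ZSCAN4 passed without any one of morula 021016_02 (edgeR adjusted p = 0.0493), blastocyst 111715_05 (0.0469) or blastocyst 112415_04 (0.0114). The medians of the morulas and of the blastocysts were 0.908 and 0.557 CPM for LEUTX.

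All 4 members passed the filter on low counts in both kits. When morulas and expanded blastocysts were fitted without the 8-cell libraries, ZSCAN4 alone passed it in SPIA, so for the others a place among the tested genes rests on the stage where they are high. The counts of calls are therefore a description of these 4 genes.

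**Figure D3:**
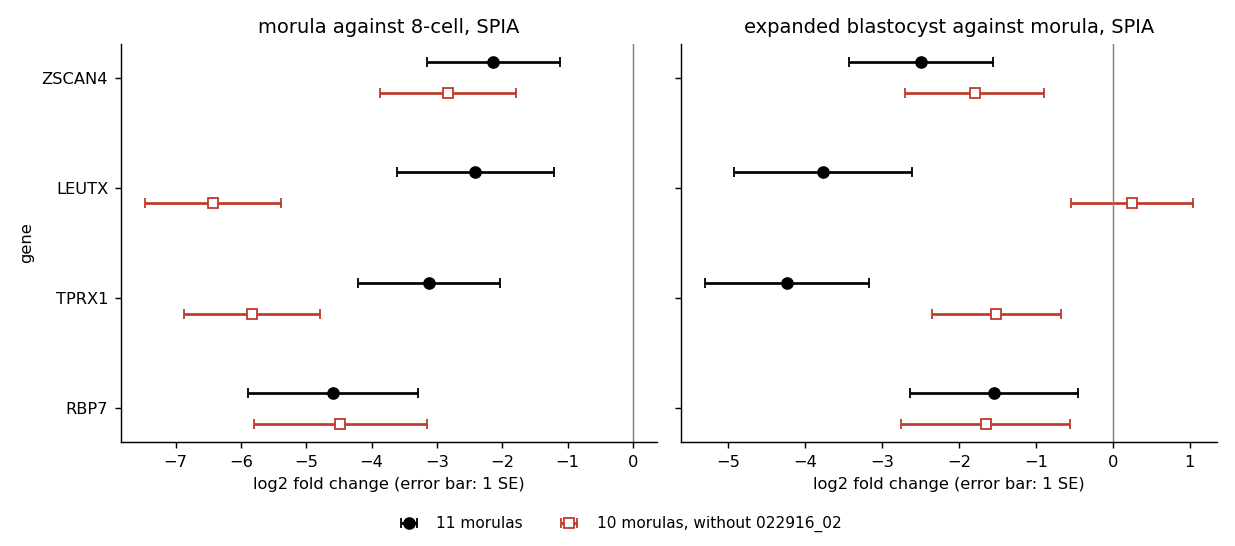
Log2 fold change of each gene in SPIA (horizontal axis; error bars are 1 SE) for morula against 8-cell embryos (left) and expanded blastocyst against morula (right), with all 11 morulas (black circles) and without morula 022916_02 (open red squares). LEUTX moves from -2.41 to -6.43 on the left and from -3.77 to 0.25 on the right, while RBP7 changes little.

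In SoLo blastocysts 3 of 4 members were called lower than in 8-cell embryos, against 19.8% of genes: ZSCAN4 (-6.60 ± 1.51), TPRX1 (-8.09 ± 1.16) and RBP7 (-6.82 ± 1.56), with edgeR adjusted p from 0.000335 to 0.00565. LEUTX was at -3.93 ± 1.65 (edgeR adjusted p = 0.0817). Its median over the 6 blastocysts was 0.171 CPM, but 112415_03 stood at 35.6 CPM, inside the 8-cell range. Without that library LEUTX was at -9.51 ± 0.95 (edgeR adjusted p = 4.2e-06). Between morulas and blastocysts in SoLo none of the 4 was called lower by edgeR or voom, nor by DESeq2 among the 3 to which it gave an adjusted p (all but ZSCAN4), against 1.03% of genes, and 1 had an unadjusted p under 0.05 (RBP7, at -3.73 ± 1.51). LEUTX was there at 5.09 ± 2.66 and, without 112415_03, at -0.49, while TPRX1 without it was at -4.45 ± 0.72 (edgeR adjusted p = 0.0110).

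Blastocyst 112415_03 held ZSCAN4, LEUTX and TPRX1 in both kits. In SPIA the levels were 12.04, 20.6 and 2.25 CPM, from 75, 128 and 14 counts. In SoLo they were 25.5, 35.6 and 9.34 CPM, from 199, 278 and 73 counts, each the highest of the 6 blastocysts. RBP7 had no count in either library. Its LEUTX level was the highest of all 14 SPIA blastocysts too. Other genes of the wave were present in it: RFPL1 stood at 10.3 CPM in SPIA and 16.1 CPM in SoLo, and KHDC1L at 8.99 and 22.5 CPM. Its KRT18 stood at 264 CPM and its GATA2 at 282 CPM in SPIA, where the medians of the expanded blastocysts were 217 and 244 CPM. GATA4, a primitive endoderm factor, had no count in SPIA and 1 count in SoLo (0.128 CPM), where the medians were 21.07 and 11.1 CPM. GATA4 was at 0 in 3 of 14 SPIA blastocysts. Its oocyte gene ZP2 stood at 52.5 and 27.6 CPM, where the medians of the expanded blastocysts were 9.66 CPM in SPIA and 3.83 CPM in SoLo.

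Blastocyst 112415_04, of the same code, kept ZSCAN4 without the homeobox genes. ZSCAN4 stood at 44.4 CPM from 265 counts, the highest of the 14 SPIA blastocysts, with LEUTX at 1.005 CPM, TPRX1 at 0.167 CPM and RBP7 at 0. ZNF280A at 82.7 CPM and RFPL1 at 28.5 CPM were also the highest of the SPIA blastocysts. The other 2 blastocysts of that code, 112415_01 and 112415_02, had ZSCAN4 at 1.48 and 0.582 CPM.

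Blastocyst 111715_05 showed ZSCAN4 at 22.9 CPM, LEUTX at 4.57 CPM and TPRX1 at 2.29 CPM, but these are 10, 2 and 1 counts in 0.601 M. Its summed trophectoderm genes stood at 480 CPM, the lowest of the expanded blastocysts, where the median was 2342 CPM. The LEUTX and TPRX1 levels of this library lie under the 6.85 CPM of 3 counts. The delayed blastocysts 112515_01 and 112515_02 held ZSCAN4 at 8.44 and 0 CPM, LEUTX at 3.33 and 0.269 CPM, TPRX1 at 1.33 and 0.404 CPM, and no count of RBP7. None of the 4 differed from expanded blastocysts by edgeR, DESeq2 or voom (0 of 4 at an unadjusted p under 0.05), in a comparison where edgeR called 0 of 15578 genes, 0%, with 196 at an unadjusted p under 0.05.

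As a count of late embryos, 1 of 27 SPIA morulas and blastocysts lay at or above the lowest 8-cell embryo for ZSCAN4 and 1 for LEUTX, in both cases morula 022916_02. In SoLo 0 of 9 did for ZSCAN4 and for TPRX1, 1 for LEUTX (blastocyst 112415_03) and 1 for RBP7 (morula 022916_01). For SPIA TPRX1 and RBP7 that limit is at or near 0 and says little. With a limit of 10% of the 8-cell median, chosen after seeing these values, 7 of 27 SPIA embryos kept ZSCAN4, namely 5 morulas and 2 blastocysts. For LEUTX, TPRX1 and RBP7 the number was 2 of 27 each. The embryos were 022916_02 and 112415_03 for LEUTX, 022916_02 and 020816_04 for TPRX1, and 020816_04 and blastocyst 111715_02 for RBP7. The RBP7 value of 111715_02 is 5 counts and is not read as kept. The RBP7 limit of 0.662 CPM lies under the level of 3 counts in several late libraries, where it cannot be told from 0.

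Leaving out the 2 farthest embryos lowered some correlations between members within a stage and raised others. Across the 3 SPIA stages with 6 or more libraries, 18 correlations of log2(CPM + 1) were computed, and none passed adjustment (lowest adjusted permutation p = 0.107 for Pearson's r and 0.0562 for Spearman's rho). In 8-cell embryos ZSCAN4 and LEUTX were at r = -0.219 (rho = -0.267, n = 9, exact permutation p = 0.564 and 0.493, adjusted p = 0.705 and 0.632), and r was -0.216 without the 2 embryos farthest from the ZSCAN4 median. LEUTX and TPRX1, the homeobox genes, were at r = 0.160 (rho = 0, exact permutation p = 0.706 and 1, adjusted p = 0.743 and 1), and at 0.285 without the 2 farthest. TPRX1 and RBP7 were at r = 0.637 (rho = 0.577, exact permutation p = 0.0677 and 0.110, adjusted p = 0.174 and 0.369), and at 0.382 without 020816_09 and 020816_07. ZSCAN4 and TPRX1 were at r = 0.493 (rho = 0.467, exact permutation p = 0.178 and 0.213, adjusted p = 0.294 and 0.463), and at 0.721 without 112815_02 and 020816_10. ZSCAN4 and RBP7 were at r = 0.351 (rho = 0.243, exact permutation p = 0.358 and 0.527, adjusted p = 0.537 and 0.632), and at 0.520 without the same embryos. LEUTX and RBP7 were at r = 0.138 (rho = 0.326, exact permutation p = 0.722 and 0.389, adjusted p = 0.743 and 0.632), and at 0.109 without them.

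In morulas LEUTX and TPRX1 had the highest coefficient, r = 0.892 (n = 11, permutation p = 0.00752, adjusted p = 0.107), with a rho of 0.392 (p = 0.231, adjusted p = 0.463). Without 022916_02 and 020816_04 r was 0.066, so the relation rested on these embryos. ZSCAN4 and TPRX1 were at r = 0.596 and rho = 0.219 in morulas (n = 11, permutation p = 0.0329 and 0.513, adjusted p = 0.119 and 0.632), and r was 0.589 without 022916_02 and 022416_03. In expanded blastocysts ZSCAN4 and TPRX1 were at r = 0.624 and rho = 0.744 (n = 14, permutation p = 0.0148 and 0.00312, adjusted p = 0.107 and 0.0562). Here r rose to 0.924 without 112415_04 and 111715_05, the 2 embryos with most ZSCAN4, but TPRX1 did not exceed 14 counts in any SPIA blastocyst. LEUTX and TPRX1 were there at r = 0.596 and rho = 0.318 (permutation p = 0.0179 and 0.268, adjusted p = 0.107 and 0.482). Without 112415_03 and 111715_05 that r was -0.058. RBP7 in these blastocysts was at r = -0.387 with ZSCAN4, -0.156 with LEUTX and -0.383 with TPRX1. The remaining pairs in morulas and expanded blastocysts are not given.

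**Figure D4:**
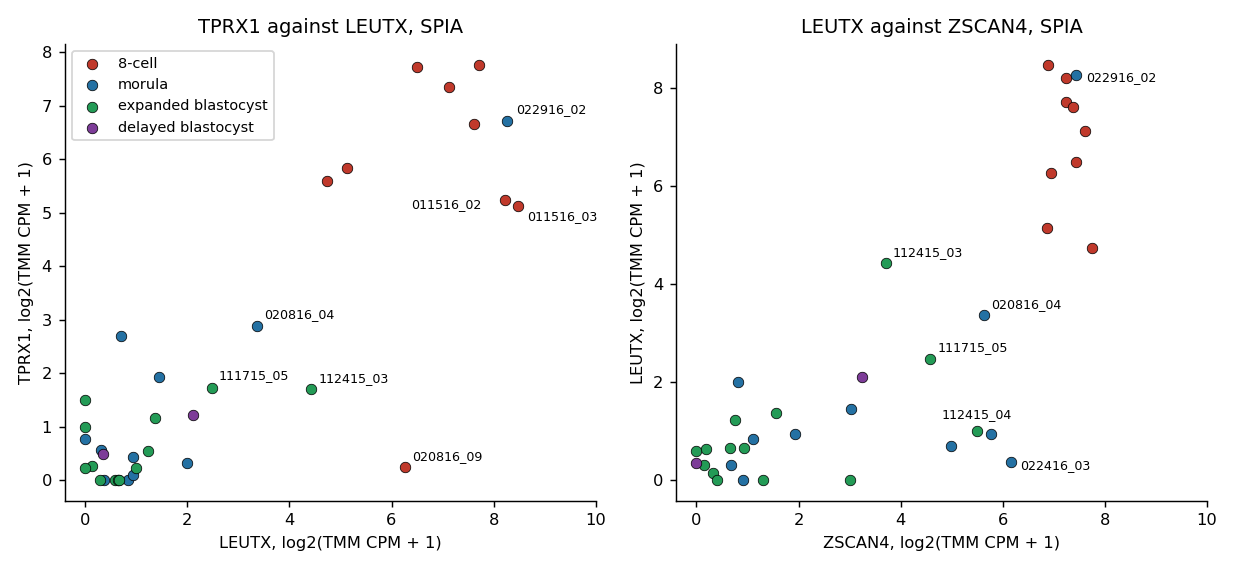
TPRX1 against LEUTX (left) and LEUTX against ZSCAN4 (right) in the 36 SPIA libraries, both axes log2(TMM CPM + 1), 1 point per embryo coloured by stage, with embryos named in the text labelled. The 2 embryos of code 011516 are highest for LEUTX with TPRX1 at 36.5 and 33.9 CPM, 020816_09 holds LEUTX at 75.7 CPM with TPRX1 at 0.182 CPM, and several morulas and 112415_04 hold ZSCAN4 with little LEUTX.

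The same embryos in both kits gave a check on these levels, on a TMM scale set over both kits together. Embryos 020816_06, 020816_07, 020816_08 and 112815_02 had LEUTX at 207.5, 296.5, 140.0 and 39.2 CPM in SPIA and at 56.4, 103, 122.5 and 13.8 CPM in SoLo. All 4 were lower in SoLo. TPRX1 in the same order was 243, 308, 330.1 and 72.3 CPM in SPIA and 340.2, 546, 493.5 and 310.0 CPM in SoLo, higher in SoLo in all 4. ZSCAN4 was 288.5, 213, 268 and 327 CPM against 355, 320.1, 412 and 387.5 CPM, also higher in SoLo in all 4.

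Over 13 libraries per kit with stage in the model, none of the 4 differed between kits in edgeR or DESeq2 (0 of 4 at an unadjusted p under 0.05 in edgeR), where 23.3% of 14873 genes did in edgeR. With the embryo as a block over the 11 title-matched pairs, LEUTX was lower in SoLo by -1.79 ± 0.42 on the log2 scale (edgeR adjusted p = 0.00295) and TPRX1 higher by 1.30 ± 0.33 (0.00582), so 2 of 4 were called against 19.7% of genes. ZSCAN4 was at 0.04 ± 0.37 and RBP7 at -1.72 ± 0.97 in that fit (adjusted p = 0.956 and 0.227). Without the block, LEUTX passed when the SoLo library of 112415_03 was left out (-3.17 ± 0.86, edgeR adjusted p = 0.00898), and RBP7 when that of 022916_01 was (-2.03 ± 0.72, 0.0397). A test of whether the kits differed by stage passed for none of the 4 (0 of 4 at an unadjusted p under 0.05), in an edgeR test that called 0 of 14873 genes, 0%, with 1566 at an unadjusted p under 0.05. Neither this test nor the first fit over 13 libraries per kit held a term for the embryo. Both treated the SPIA and SoLo libraries of an embryo as independent, so their lack of calls does not use the pairing.

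Single late embryos matched between kits for some members and not for others. Blastocyst 112415_03 held LEUTX at 29.7 and 28.1 CPM in SPIA and SoLo on the shared scale, ZSCAN4 at 17.4 and 20.1 CPM, and TPRX1 at 3.25 and 7.38 CPM. Morula 021016_03 held TPRX1 at 0.532 CPM in SPIA and 11.4 CPM in SoLo, and ZSCAN4 at 4.43 and 14.9 CPM. Morula 022916_01 had no RBP7 count in SPIA and 3.28 CPM in SoLo.

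**Figure D5:**
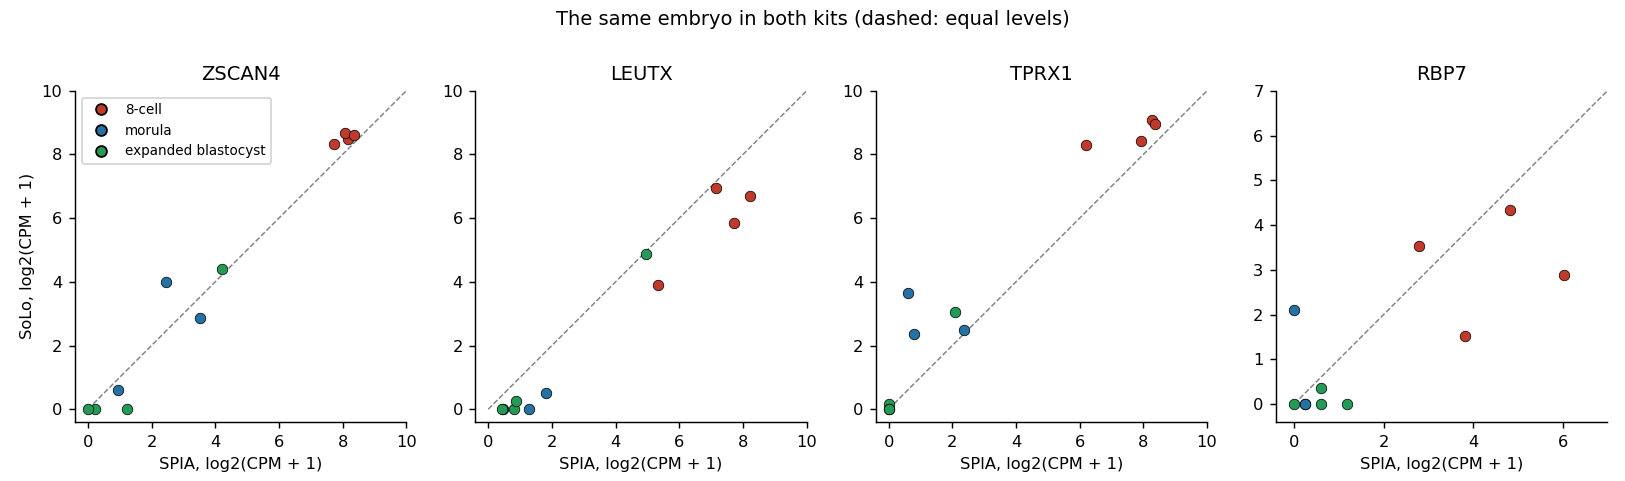
Level in SoLo (vertical axis) against SPIA (horizontal axis) for the 11 embryos whose library is known in both kits, log2(CPM + 1) on a scale shared by the kits, coloured by stage, with the dashed line at equal levels. The 4 8-cell embryos lie below the line for LEUTX and above it for TPRX1 and ZSCAN4.

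The genes whose pattern was most like each member were ranked by Pearson's r over the 36 SPIA libraries among 12001 named genes that passed the filter. These coefficients are descriptions, since the libraries share stages, depth and composition. ZSCAN5A, another SCAN-domain zinc finger gene, was the gene most like ZSCAN4, with r = 0.924 in SPIA, 0.977 over the 13 SoLo libraries and 0.920 within the 11 SPIA morulas. Next came ZNF280A (0.915), ZNF735 (0.858), CNTLN (0.856) and YPEL5 (0.852). ZSCAN5A fell by 3.16 ± 0.73 in SPIA morulas against 8-cell embryos (edgeR adjusted p = 0.00274). Of 16 other ZSCAN genes it alone was called in that comparison, where 10.3% of all genes were called lower. In SoLo it was at -5.51 ± 1.73 (edgeR adjusted p = 0.0511).

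RFPL1, a member of the ret finger protein-like family, was most like LEUTX (r = 0.910 in SPIA and 0.961 in SoLo), followed by ZNF679 (0.888), the cyclin gene CCNA1 (0.872), RNF122 (0.872) and the RNA-binding protein gene ELAVL3 (0.871). ZNF679 led for TPRX1 (0.908), followed by EBF3 (0.903), RNF122 (0.902), KHDC1L (0.893) and CGAS (0.886), which encodes the DNA sensor cGAS. RBP7 had the lowest coefficients, with SLFN13 and CGAS at 0.804, PLVAP at 0.791, the transporter gene SLC16A6 at 0.787 and PNMA2 at 0.765. Between members, r over the SPIA libraries was 0.864 for LEUTX and TPRX1, 0.812 for ZSCAN4 and LEUTX, and 0.587 for ZSCAN4 and RBP7.

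Within the 11 SPIA morulas the leading genes were DYNLL2 (0.921), ZSCAN5A (0.920) and ZNF420 (0.902) for ZSCAN4. For LEUTX they were SAGE1 (0.978), TAMALIN (0.977) and WDR31 (0.975), and for TPRX1 LRRC4B (0.968), TBCC (0.959) and BAIAP2L2 (0.957). For RBP7 they were MYH7 (0.994), BCL11B (0.993) and DEPTOR (0.991). Within these 11 morulas, LEUTX was above 3 CPM in 2, TPRX1 in 3 and RBP7 in 1. Over all 36 SPIA libraries the coefficient with LEUTX was 0.295 for TAMALIN and 0.229 for WDR31, and ZSCAN5A was the only gene named in both rankings of a member.

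Of 47 other genes of the 8-cell wave, 15 had a named identifier and 14 were tested. In SPIA morulas 4 were called lower and 1 higher than in 8-cell embryos, where 10.3% and 9.06% of all genes were. The median log2 fold change of the 14 was -1.14 against -0.14 over all genes. In SoLo 4 were called lower and 1 higher, where 6.92% and 9.78% of all genes were (median -1.05 against -0.06). KLF17, a Krüppel-like factor of the early embryo, fell by 2.66 ± 0.94 in SPIA (edgeR adjusted p = 0.0405) and by 3.89 ± 1.06 in SoLo (0.0278). The phosphate transporter gene SLC34A2 fell in both kits (-3.68 ± 0.61 and -3.80 ± 0.45), as did the zinc finger gene ZNF280A (-1.55 ± 0.48 and -3.09 ± 0.70). CCNA1, the early embryonic cyclin, fell in SPIA (-2.92 ± 0.96), and KHDC1L fell in SoLo (-6.36 ± 1.41). KLF4, another Krüppel-like factor, rose by 3.31 ± 0.50 and 2.94 ± 0.45.

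SLC34A2 rose in SoLo blastocysts, by 1.93 ± 0.39 against morulas (edgeR adjusted p = 0.0265), where no member and 0.113% of all genes were called higher. In SPIA it was at 1.19 ± 0.52 (adjusted p = 0.116). From morula to expanded blastocyst in SPIA, 6 of the 14 other wave genes were called lower, among them KLF17 (-3.54 ± 0.88), CCNA1 (-3.51 ± 0.91) and ZNF280A (-2.22 ± 0.44), and none higher. Of all genes, 9.95% were called lower there and 4.71% higher.

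The genes named from the next lists were chosen after their values were seen. Of 23 candidate upstream regulators, 17 had a named identifier and all were tested. In SPIA morulas 3 were called higher and 3 lower, where 9.06% and 10.3% of all genes were. DPPA2 and DPPA4, which activate early embryonic genes in mouse, rose by 3.86 ± 0.77 and 4.16 ± 0.83, and the chromatin remodeller SMARCAD1 by 1.51 ± 0.36. OTX2, a homeobox factor stored in the oocyte, fell by 2.82 ± 0.85, and the histone chaperone gene CHAF1A by 1.19 ± 0.38. In SoLo, with 3 called higher and 1 lower where 9.78% and 6.92% of all genes were, the same 3 rose (3.68 ± 1.05, 3.53 ± 1.00 and 1.45 ± 0.26), and OTX2 fell (-3.55 ± 1.02). The summed level of the list reached 17020 CPM in 8-cell embryo 020816_09, against a median of 4062 CPM.

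Around RBP7, 23 of 28 genes of retinoid carriers, receptors and enzymes had a named identifier, and 17 were tested in SPIA. Of these, 5 were called higher and 1 lower in morulas than in 8-cell embryos, against 9.06% and 10.3% of all genes. In SoLo 1 of 15 was called higher and 2 lower, against 9.78% and 6.92% of all genes. From morula to expanded blastocyst in SPIA, 2 of 17 were called higher and 5 lower, against 4.71% and 9.95% of all genes. RBP4, the secreted retinol carrier, rose by 7.26 ± 1.62 in SPIA and 6.23 ± 2.04 in SoLo. CYP26A1 and CYP26B1, which break down retinoic acid, rose by 5.37 ± 1.41 and 9.33 ± 1.93 in SPIA, and DHRS3, which reduces retinal, by 5.27 ± 1.34. The receptor gene RXRB rose by 3.33 ± 1.11 in SPIA, and RARG fell by 3.71 ± 1.05 in SoLo. In SPIA, then, RBP7 was called lower and RBP4 higher, while in SoLo RBP7 was not called. Genes of this list called lower in SPIA are not named here. The list did not rise as a whole: its summed SPIA level had medians of 160.3 CPM in 8-cell embryos, 107.7 CPM in morulas and 67.0 CPM in expanded blastocysts. In SoLo these medians were 207.6, 179.4 and 145.3 CPM.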

How the data were processed

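RNA was measured in single embryos, and the authors deposited 1 table of whole-number read counts per gene. HISAT2 and DESeq2 are named by the submitters' processing notes. Which counting tool, genome build, annotation and strand setting were used is not given in the sources used here. Of 52 columns, 49 matched the labels of a sample or group; the other 3 were not used, and 3 of 52 samples are not analysed here. Totals were 0.601 to 21.04 M counts (SPIA) and 5.70 to 10.6 M (SoLo), and limits for a count of 0 (3 counts) cover counting error only.

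The 4 genes, the gene lists and the tests were chosen with earlier results of these data known. Genes were filtered with filterByExpr, scaled by TMM and tested per kit with edgeR 4.0.16 (robust quasi-likelihood, all stages of a kit in 1 fit, Benjamini-Hochberg adjustment over all genes tested, threshold 0.05) in R 4.3.3. An SE is the size of the log2 fold change divided by the square root of F. Correlations used log2(CPM + 1) and permutation tests (exact in groups under 10, otherwise 100000 resamples). Named besides the members were the 5 genes most like each over all SPIA libraries, the 3 most like each within morulas, and called genes of the genome activation list. Some results of the regulator and retinoid lists are not reported here. Alternatives were DESeq2 1.42.0, voom in limma 3.58.1, other scalings, filters and pseudocounts, groups fitted alone, depth and title-code subsets, blocks, and each library left out. The edgeR procedure was tested on simulated data. Python 3.11.15 with numpy 2.4.6, pandas 2.3.3, scipy 1.17.1 and matplotlib 3.10.9 did the rest.

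The embryo pairing between kits comes from shared titles. Over 11 pairs the median correlation of deviations from the group means was 0.181, 10 pairs were above 0.1 and in 10 the best match of a library was its partner, all but 111715_02 (-0.0403).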

Additional observations from a re-analysis of the deposited data

Results flagged for a closer look

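In a check for single extreme embryos, 4 of 12 groups of 4 to 10 libraries had a member whose highest or lowest value lay far from the rest. The limit used flags about 1 in 20 groups of normally distributed values, and that rate does not hold for values piled near 0. In SoLo expanded blastocysts ZSCAN4 was at 0 counts in 3 of 6 libraries, and LEUTX at or under 3 counts in 5 of 6. A single expressing embryo then stands apart, so the 4 flags are descriptions. Of these, 3 come from the SoLo library of expanded blastocyst 112415_03 and are not independent. ZSCAN4 stood there at 25.5 CPM with the next embryo at 2.005 CPM, LEUTX at 35.6 CPM with the next at 0.233 CPM, and TPRX1 at 9.34 CPM with the next at 1.12 CPM. The SPIA library of the same embryo held 12.04, 20.6 and 2.25 CPM. The other was TPRX1 in SPIA 8-cell embryo 020816_09, at 0.182 CPM with the next lowest embryo at 33.9 CPM.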

How the results depend on the processing

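Between 8-cell embryos and expanded blastocysts in SPIA, 4 members were called without each library in turn, and 3 with the groups fitted alone or the stricter filter. The other counts of called members moved, and the cause was not tested. The share of all genes called in each setting is not given with these counts. They therefore do not compare the members with other genes. For SPIA morulas against 8-cell embryos, 2 members were called; the count was 0 with the groups fitted alone, in embryos with no SoLo library, above 12 M counts and within code 020816, 1 with the stricter filter or without the 3 embryos with cumulus transcripts, and 4 with voom, with or without a title-code block. It ran from 1 to 4 without each library. The same comparison in SoLo (1 call) gave 3 with the groups alone, 2 with DESeq2, 4 with both voom fits and 0 without the embryos with cumulus transcripts, which leaves 1 8-cell library and is no check, and 0 to 1 without each library, 0 being without morula 021016_02. For SPIA expanded blastocysts against morulas (2 calls) the count was 0 with the groups alone, 1 in embryos with no SoLo library and in both voom fits, and 0 to 3 without each library. In SoLo (0 calls) it was 0 to 1, with TPRX1 called without 112415_03. Groups fitted alone test fewer genes: in SPIA the filter then drops RBP7, and between blastocysts and morulas also LEUTX and TPRX1, the 2 called genes.

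With the embryo as a replicate block, 2 members differed between kits where none did without it, and leaving out single libraries gave 0 to 1. In SPIA the voom title-code correlation was -0.0345 and in SoLo 0.0682.

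These values changed sign. LEUTX in delayed against expanded blastocysts was 0.61 in voom, 0.54 with its block and 0.61 without 112515_02, and ran from -2.95 to 1.51 without single libraries. ZSCAN4 there was 0.42 without 112515_02 and ran from -9.01 to 0.47, and TPRX1 ran from -0.50 to 1.19, where the lone delayed library is assumed to vary like the others. Between expanded blastocysts and morulas, LEUTX ran from -0.49 (without 112415_03) to 8.63 in SoLo and from -5.58 to 0.25 (without 022916_02) in SPIA. RBP7 ran from -4.91 to 2.79 (without 022916_01) in SoLo and from -2.25 to 0.94 (without 020816_04) in SPIA, with 0.12 in voom and 0.11 with its block. ZSCAN4 ran from -4.20 to 0.16 (without 021016_03) in SoLo, and between kits from -0.72 to 0.96, without the SoLo or the SPIA library of 112415_03. The 8-cell correlation of ZSCAN4 and LEUTX was 0.045 with plain totals. Summed over members and kits, 48 late values reached the lowest 8-cell library, 30 the second lowest and 15 the limit of 10% of the median. Of the 20 genes named as most alike, 5 were shared with a ranking by Spearman's rho. In all, 726 fold changes kept their direction and side of the threshold, 28 lost the call, 32 gained it and 15 turned. DESeq2 gave no adjusted p for ZSCAN4 in SoLo. Low depth limits values under 3 counts, above all in blastocysts.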
